A study of Mus musculus with 4 samples.

Results

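The genes described here are 40 genes of mitosis and cell cycle progression, taken by symbol from the 23420 genes listed in the RNA sequencing tables of the study. All 40 were listed, and all 40 had enough reads to be tested. Of these, 29 act in mitosis or drive its transcription (cyclins A2, B1 and B2, CDK1, its phosphatases, mitotic kinases, checkpoint, centromere, spindle and chromosome proteins, Foxm1 and Mybl2), and 11 act in G1 and S phase (the D-type and E-type cyclins, Cdk2, Cdk4, Cdk6 and E2f1 to E2f3).

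A dividing cell passes through G1, S phase, G2 and mitosis as cyclins accumulate and activate cyclin-dependent kinases. D-type cyclins with CDK4 or CDK6 and E-type cyclins with CDK2 inactivate the retinoblastoma proteins and so release E2F factors, while cyclin A and the B-type cyclins with CDK1 bring the cell into mitosis, which ends when the anaphase-promoting complex (APC/C) marks the cyclins for destruction. Cochlear hair cells leave the cell cycle before birth and do not divide again, and the mitotic genes are known as markers of dividing cells.

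The study asked how hair cells respond to an aminoglycoside antibiotic before they die. Cochleae of postnatal day 1 CD1 mice carrying the Atoh1-GFP transgene, in which an Atoh1 enhancer drives GFP in hair cells, were kept overnight as organ cultures at low oxygen in medium with N2 supplement and penicillin. The treated groups received gentamicin at 0.5 mM over 3 h and the control groups received none, and cells were then dissociated and sorted into GFP-positive hair cells (HC), with weakly GFP-positive cells gated out, and GFP-negative non-hair cells (NHC), a mixture of supporting cells, other cochlear epithelium and surrounding tissue. The 4 groups, HC control, HC gentamicin, NHC control and NHC gentamicin, had 3 replicates each, and since the labels do not say whether replicates came from separate litters or cultures, p-values measure the spread between these 12 samples only.

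The replicates held between 22400453 and 28151982 reads on genes. The deposited score of a gene is its number of reads times a factor for each replicate, with 1 added, so that a gene without reads has a score of 1. In control cells the 9 hair cell markers had HC levels between 2186% and 220708% of those in NHC, and the HC level of 8 mesenchyme markers was at a median of 5.66% of the NHC level. Among supporting cell markers, 6 of 8 were higher in HC than in NHC, with a median of 134%.

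A pair of libraries stood apart for the cell cycle genes. NHC gentamicin replicate 2 was the highest of the 6 NHC libraries for 29 of the 29 mitotic genes, against 29.2% of all genes tested, and its mitotic scores were at a median of 1.67 times the mean of the other 2 replicates of its group (range 1.36 to 1.95). HC control replicate 2 was the highest of the 6 HC libraries for 18 of the 29 mitotic genes, against 25.5% of all genes tested, at a median of 1.16 times the other 2 replicates.

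**Figure D1:**
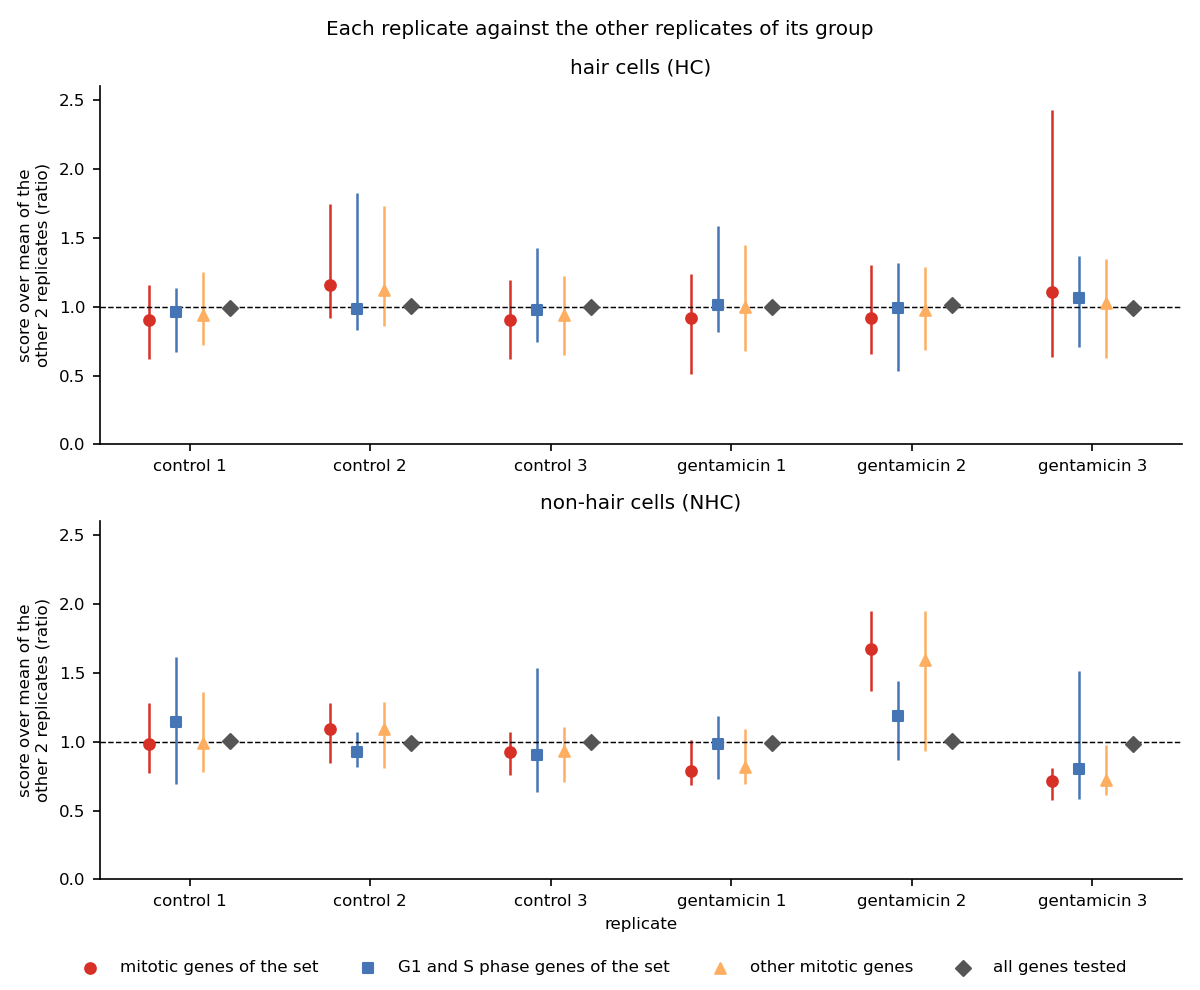
Score in each replicate divided by the mean score of the other 2 replicates of its group (y axis, ratio), for the 12 replicates (x axis) in HC (top) and NHC (bottom). Symbols are medians over the 29 mitotic genes, the 11 G1 and S phase genes, 49 other mitotic genes and all 16077 genes tested, and lines run from the lowest to the highest gene (not drawn for all genes). The mitotic genes of NHC gentamicin replicate 2 have a median of 1.67 and all lie above 1.

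Promoter sequences were looked up first, since mitotic genes are known to share promoter elements. RefSeq promoters (build GRCm38.p6) were matched by symbol for 30 of the 40 genes, and the 250 bases before the transcription start were searched on both strands for the cell cycle homology region (TTTGAA or TTCGAA), through which the DREAM and MuvB complexes repress and activate mitotic genes, the CCAAT box (CCAAT), bound by NF-Y, E2F sites (TTTCCCGC, TTTGGCGC, TTTCGCGC or TTTGCCGC) and the GC box (GGGCGG). Each motif was searched separately, so the same bases could count for more than 1 motif. No entry was found for Kif20a, Incenp, Tpx2, Ccnd2, Ccnd1, Ccne2, Foxm1, Ccna2, Cdc25c and Aurkb.

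The CCAAT box was in 22 of the 30 genes with a promoter, against 33.8% of the 32851 promoters and 37.5% of the 27025 genes in the table, and in 18 of 22 mitotic and 4 of 8 G1 and S phase genes. The cell cycle homology region was in 11 of 30, against 17.1% of promoters and 19.6% of genes, and Top2a held 4 matches, more than any other of the 30. An E2F site was in 3 of 30 (Cdk1, Cdk2 and E2f3), against 1.86% of promoters and 2.16% of genes. A GC box was in 23 of 30, against 32.7% of promoters and 35.4% of genes. These are matches of letters and were not tested for binding.

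The 5 promoters below belong to genes on which the results turn: Ccnb2 and Aurka, which rose in hair cells with gentamicin, Cdk2, which fell, Cdk1, with one of the 3 largest differences between the cell populations, and Cdc25b, which was higher in hair cells. Each is given 5′ to 3′ on the strand of its gene, and capitals mark the homology region, the CCAAT box and E2F sites on either strand (ATTGG is the CCAAT box on the other strand). Ccnb2 (chr9:70421555-70421804, minus strand) held CCAAT boxes that began 87, 54 and 21 bases before the start and 1 homology region 167 bases before it. Aurka (chr2:172370571-172370820, minus strand) held 2 CCAAT boxes and no match to the other marked motifs, and Cdk1 (chr10:69352913-69353162, minus strand) held 3 CCAAT boxes, 2 homology regions and 1 E2F site. Cdk2 (chr10:128705052-128705301, minus strand) held 1 CCAAT box, 1 E2F site and 5 GC boxes, which are not capitalized. Cdc25b (chr2:131186698-131186947, plus strand) held 1 CCAAT box and 4 GC boxes.
Ccnb2: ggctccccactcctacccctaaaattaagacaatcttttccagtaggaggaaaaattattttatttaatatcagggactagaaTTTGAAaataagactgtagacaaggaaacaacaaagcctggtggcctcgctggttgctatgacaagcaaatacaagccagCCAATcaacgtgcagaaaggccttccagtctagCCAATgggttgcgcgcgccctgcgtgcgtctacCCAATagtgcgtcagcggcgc
Aurka: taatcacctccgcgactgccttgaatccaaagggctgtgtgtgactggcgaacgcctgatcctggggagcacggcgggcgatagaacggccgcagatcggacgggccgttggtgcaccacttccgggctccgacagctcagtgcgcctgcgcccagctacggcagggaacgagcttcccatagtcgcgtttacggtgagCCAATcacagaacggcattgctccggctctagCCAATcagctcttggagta
Cdk1: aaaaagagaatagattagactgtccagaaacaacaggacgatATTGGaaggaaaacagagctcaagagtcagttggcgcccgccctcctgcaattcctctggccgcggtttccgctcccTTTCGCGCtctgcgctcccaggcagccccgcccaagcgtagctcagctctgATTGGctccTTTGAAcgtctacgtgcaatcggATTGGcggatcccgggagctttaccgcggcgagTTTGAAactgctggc
Cdk2: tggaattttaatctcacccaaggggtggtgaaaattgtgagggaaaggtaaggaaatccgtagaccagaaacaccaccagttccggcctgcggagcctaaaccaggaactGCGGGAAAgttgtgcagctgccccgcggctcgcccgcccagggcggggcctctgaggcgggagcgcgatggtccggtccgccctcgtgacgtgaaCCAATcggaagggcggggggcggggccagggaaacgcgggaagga
Cdc25b: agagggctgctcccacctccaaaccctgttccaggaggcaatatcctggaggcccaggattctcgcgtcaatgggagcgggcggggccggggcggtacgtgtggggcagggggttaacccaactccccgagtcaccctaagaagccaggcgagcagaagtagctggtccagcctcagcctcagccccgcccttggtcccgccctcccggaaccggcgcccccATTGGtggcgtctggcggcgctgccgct

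The first comparison asked at what level these genes stood in untreated HC and NHC. Of the 40 genes, 35 differed (limma, Benjamini-Hochberg adjusted p under 0.05), 33 lower and 2 higher in HC, against 74.1% of all genes tested, 42.2% lower and 31.9% higher. Of the 29 mitotic genes, 27 were lower in HC, and without the offset the HC level of the 29 was at a median of 9.37% of the NHC level, with 15 of 29 under 10%. Without HC control replicate 2 this median was 7.56%. The 11 G1 and S phase genes had a median of 68.1%. In bulk samples, a lower share of cells that express a gene and less of its RNA per cell cannot be told apart.

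**Figure D2:**
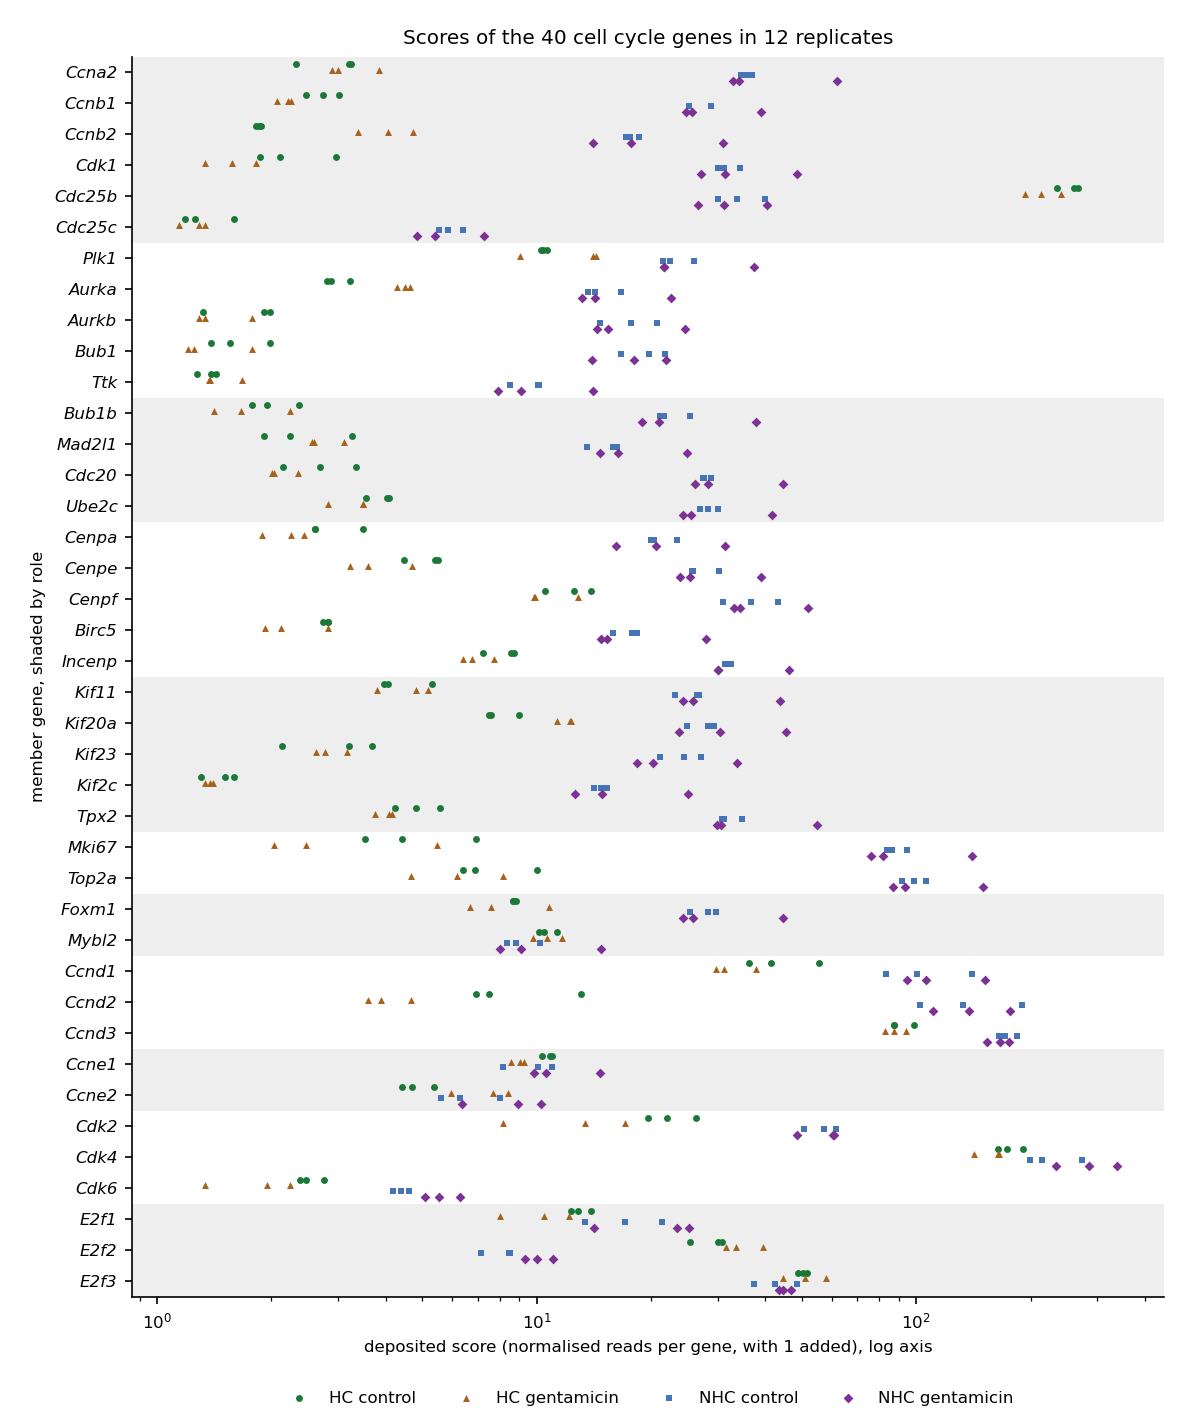
Deposited scores (x axis, log scale) of the 40 cell cycle genes (y axis, in the order of their roles, alternately shaded) in the 12 replicates. Each point is 1 replicate of HC control, HC gentamicin, NHC control or NHC gentamicin. Most mitotic genes lie far to the left in HC, while Cdc25b lies between 193 and 267 in HC and under 41 in NHC.

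The largest differences belonged to Mki67, Ccnd2 and Cdk1. Mki67 (mm10 chr7:135689784-135716361, minus strand), which encodes the chromosome surface protein Ki-67, had scores of 4.43, 6.94 and 3.53 in the 3 HC control replicates and of 86.5, 94.8 and 83.9 in NHC control, a log2 difference of −4.21 ± 0.36 (SE, adjusted p = 7.6e-07). Ccnd2 (chr6:127125162-127152193, minus strand), for cyclin D2, had 6.92, 13.1 and 7.48 against 190, 132 and 102 (−3.96 ± 0.27, adjusted p = 1.3e-07). The groups were far apart for both genes, and HC control replicate 2 was the highest of the HC controls in each. Without that replicate the log2 differences were −4.48 ± 0.38 for Mki67 and −4.25 ± 0.25 for Ccnd2, and 34 of the 40 genes differed.

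Cdk1 (chr10:69335146-69352938, minus strand), the kinase that drives entry into mitosis, had scores of 1.87, 2.97 and 2.11 in HC control and of 34.4, 31.1 and 29.96 in NHC control (−3.81 ± 0.23, adjusted p = 4.2e-08). Its partners Ccna2, Ccnb1 and Ccnb2 and its activating phosphatase Cdc25c had HC levels between 5.07% and 7.08% of those in NHC. These levels rested on few reads, and 17 of the 29 mitotic genes had fewer than 100 reads in every HC library.

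Cdc25b (chr2:131186949-131198497, plus strand), the other CDK1 phosphatase of the set, went the opposite way. Its scores were 267, 260 and 234 in HC control and 33.7, 39.98 and 30.1 in NHC control, a log2 difference of 2.88 ± 0.15 (adjusted p = 1.2e-08), and it held 5060.9 to 6132.1 reads in the HC control libraries. The gene that was higher in HC beside it was E2f2, an activating E2F factor, with 30.8, 25.4 and 30.1 against 8.44, 7.14 and 8.49 (1.84 ± 0.13, adjusted p = 1.3e-07). No replicate of one population reached the range of the other for either gene.

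Among the mitotic kinases, Bub1, Ttk and Aurkb stood at 3.49%, 4.26% and 4.42% of the NHC level in control HC, Aurka, which matures centrosomes and builds the spindle, at 14.1% and Plk1, which acts from mitotic entry to cytokinesis, at 42.3%. The spindle checkpoint genes Bub1b and Mad2l1 and the APC/C genes Cdc20, its coactivator, and Ube2c, its ubiquitin-conjugating enzyme, lay between 4.78% and 10.6%. The kinases thus spread over a wider range than the checkpoint genes.

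The centromere and passenger complex genes lay between 9.37% for Cenpa, the histone H3 variant of the centromere, and 31.5% for Cenpf, with Birc5, Cenpe and Incenp between them. The spindle motors and the assembly factor ran from 3.41% for Kif2c, which takes microtubules apart, over Kif23, Tpx2 and Kif11 to 26.5% for Kif20a. Kif20a shares 1271 of its 4338 exonic bases with Cdc23 on the opposite strand, and no step that keeps strand is named for these libraries, so reads of the pair cannot be told apart there. The same limit holds for other genes of the set, among them Ube2c (592 of 2600 bases), Ccna2 (510 of 4083) and Cdc25c (623 of 4919). Ccnd1 (1100 of 4709) and Cdk4 (641 of 3249) share bases with an opposite gene too. Top2a, which untangles DNA, was at 6.93%.

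Of the 2 mitotic transcription factors, Foxm1 stood at 28.8% of the NHC level. Mybl2, a partner of the MuvB complex, had scores of 11.3, 10.2 and 10.4 in HC control and of 10.2, 8.803 and 8.34 in NHC control, a log2 difference of 0.23 ± 0.20 that did not pass the test (adjusted p = 0.32).

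Per length of transcript, the D-type cyclins were ordered alike in both populations, but with unequal gaps. Scores without the offset per kilobase of the longest annotated transcript were 23.4 for Ccnd3, 11.6 for Ccnd1 and 1.29 for Ccnd2 in HC control, and 44.7, 28.6 and 22.2 in NHC control. Among the interphase CDKs the same measure was 85.5 for Cdk4, 6.64 for Cdk2 and 0.13 for Cdk6 in HC control and 111, 16.98 and 0.29 in NHC control. All 6 of these genes were lower in HC, Cdk4 by the smallest log2 difference (−0.36 ± 0.14, adjusted p = 0.039), which 3 of 6 fits that left out 1 control replicate did not call.

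The E-type cyclins, and the E2F factors apart from E2f2, did not pass the test between the control populations. Ccne1 had the smallest log2 difference of the 40 genes, 0.15 ± 0.16 (adjusted p = 0.41), with scores of 10.8, 11.01 and 10.3 in HC control and 10.96, 10.1 and 8.14 in NHC control. E2f3 had 48.9, 50.4 and 51.5 against 37.4, 42.6 and 48.5 (0.24 ± 0.11, adjusted p = 0.063). A block on the replicate number was taken to pair the control libraries, which no label states. The block also spans the gentamicin libraries, where pairing was not shown. With it E2f3 (adjusted p = 0.034) and E2f1, at −0.38 (adjusted p = 0.046), passed too, giving 37 of 40. Ccne2 was at −0.44 ± 0.21 (adjusted p = 0.071), and at an adjusted p of 0.055 with the block.

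Markers of other cell types that the sort could hold were read beside these levels. In control HC, mesenchyme, endothelial and macrophage markers stood at medians of 5.66%, 8.61% and 6.92% of their NHC levels and Schwann cell markers at 32.3%, beside the 9.37% of the mitotic genes. Their summed scores without the offset were 5887.5 to 7579.6 in NHC control for mesenchyme, 156 to 253 for endothelium, 550 to 787 for Schwann cells and 29.3 to 53.1 for macrophages, and no marker was without reads in every library. HC control replicate 2 was also the highest of the 6 HC libraries for 6 of 8 mesenchyme, 5 of 6 endothelial and 5 of 6 Schwann cell markers. The part of such cells in the HC levels of the mitotic genes was not tested.

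**Figure D3:**
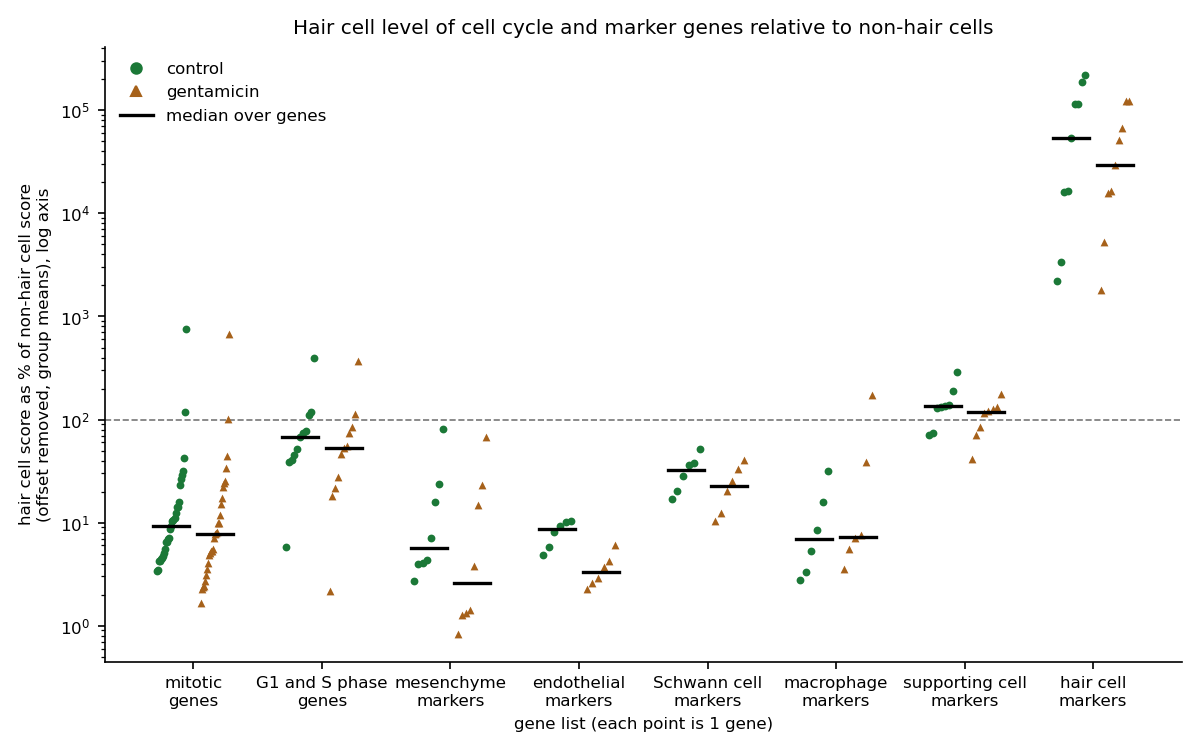
Score in HC as a percentage of the score in NHC (y axis, log scale, group means with the offset removed) for the mitotic and the G1 and S phase genes and for 6 lists of cell type markers (x axis). Each point is 1 gene, circles are control and triangles gentamicin, and bars are medians. The mitotic genes in control (median 9.37%) overlap the mesenchyme, endothelial and macrophage markers, and the lowest hair cell marker is at 1821%, with gentamicin.

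The second comparison asked how the 40 genes responded to gentamicin in hair cells. The criteria of the study (p under 0.01, fold above 1.2) were applied to limma p-values, not to those of its own test. By them 4 of 40 genes (10%) passed, against 27.5% of all genes tested. Ccnb2 and Aurka rose and Ccnd2 and Cdk2 fell, where 12.7% of all genes rose and 14.8% fell. At an adjusted p under 0.05 with no fold threshold, 6 of 40 passed, against 33.2% of all genes. The 4 groups share 1 estimate of the spread, so NHC gentamicin replicate 2 also enters the SE of these HC tests. Without it the SE of the NHC response fell from 0.24 to 0.16 for Ccnb2 and from 0.19 to 0.13 for Aurka. It rose from 0.27 to 0.30 for Ccnd2 and from 0.23 to 0.26 for Cdk2. The HC response was not refitted without that library. The log2 difference was below 0 for 28 of the 40 genes and for 9626 of the 16077 genes tested. Its median was −0.22 over the 40 and −0.09 over all genes tested.

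**Figure D4:**
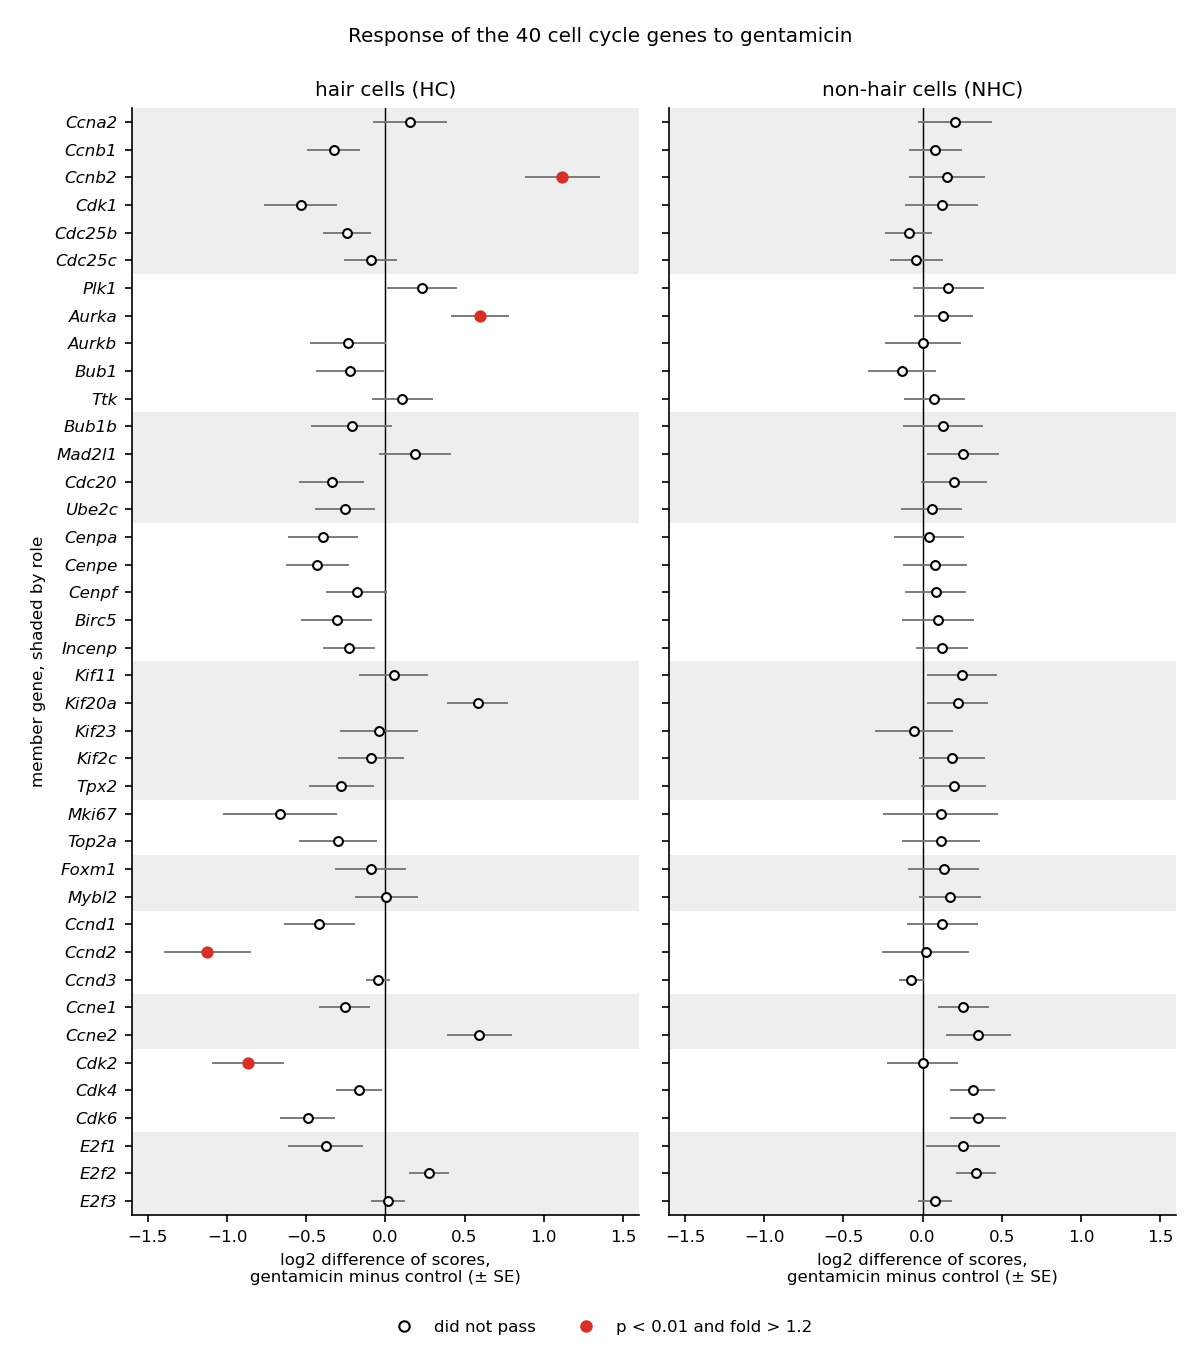
Log2 difference of scores, gentamicin minus control, with its SE (x axis), for the 40 cell cycle genes (y axis, in the order of their roles, alternately shaded) in HC (left) and NHC (right). Filled red points passed p under 0.01 with a fold above 1.2, open points did not. In HC, Ccnb2 and Aurka lie to the right and Ccnd2 and Cdk2 to the left, and no gene is filled in NHC.

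Ccnb2 (chr9:70407692-70421547, minus strand), for cyclin B2, rose most. Its scores were 1.83, 1.86 and 1.88 in HC control and 4.05, 4.72 and 3.39 with gentamicin, which stand for 19, 20 and 19 reads and for 74, 89 and 67 reads. The log2 difference was 1.12 ± 0.24 (adjusted p = 0.0047). No treated replicate reached down to the controls, and each of the 6 fits that left out 1 HC replicate called the gene. Because the added 1 weighs on low scores, the same means without it differed by 3.58-fold.

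Aurka (chr2:172356190-172370535, minus strand), for Aurora kinase A, had scores of 2.87, 3.22 and 2.797 in HC control and of 4.30, 4.64 and 4.49 with gentamicin (0.60 ± 0.19, adjusted p = 0.029). The groups did not overlap. None of the 6 fits with 1 HC replicate left out called it, with log2 differences between 0.56 and 0.66 and p between 0.011 and 0.027. All of these fits kept NHC gentamicin replicate 2 in the shared spread.

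Ccnd2 had scores of 6.92, 13.1 and 7.48 in HC control and of 3.597, 3.895 and 4.67 with gentamicin (−1.12 ± 0.27, adjusted p = 0.0098). Every treated replicate was below every control. Without HC control replicate 2, the highest, the log2 difference was −0.84 (adjusted p = 0.039), and the gene passed in 6 of 6 such fits. Ccnd2 was at 5.81% of the NHC level in control and at 2.17% with gentamicin (2.48% without NHC gentamicin replicate 2). Ccnd2 shares 368 of its 9409 exonic bases with 9330179D12Rik on the opposite strand.

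Cdk2 (chr10:128697939-128705031, minus strand), the kinase of S phase entry, had scores of 19.7, 22.05 and 26.3 in HC control and of 17.1, 8.16 and 13.4 with gentamicin (−0.87 ± 0.23, adjusted p = 0.013). The groups did not overlap, and the treated replicates spread more widely than the controls. The call was lost without HC control replicate 3 and with the 2 HC groups fitted alone, and held in 5 of 6 fits that left out 1 HC replicate, where the log2 difference ran from −1.10 to −0.57. It shares 34 of 6219 exonic bases with Pmel on the opposite strand.

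Markers of other cell types moved in the same HC libraries. Of 8 mesenchyme markers, 3 fell (Col1a2, Col3a1 and Dcn, at log2 differences of −1.18, −1.33 and −0.69), as did 3 of 6 Schwann cell, 1 of 6 endothelial and 3 of 8 supporting cell markers (Lfng, Hes5 and Sox9). Over all genes tested, 14.8% fell and 12.7% rose. None of the 9 hair cell markers passed, but their summed score without the offset was also lower, 12159.2 to 12544.5 in HC control and 10052.8 to 11380.3 with gentamicin. The summed score without the offset lay at 531 to 778 in HC control and 363 to 442 with gentamicin for mesenchyme, at 229 to 283 and 118 to 194 for Schwann cells, at 13.4 to 23.9 and 7.2 to 12.9 for endothelium, and at 1505 to 1750 and 708 to 1291 for supporting cells. Of 6 macrophage markers, Cd68 rose (2.52 on the log2 scale). The other 5 did not pass, with log2 differences between −0.01 for Cx3cr1 and 0.26 for Csf1r. The macrophage sum, which includes Cd68, was 4.2 to 5.6 and 15.1 to 21.3, so it does not stand for the list as a whole. The part of these cells in the changes of Ccnd2, Cdk2, Ccnb2 and Aurka was not tested.

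**Figure D5:**
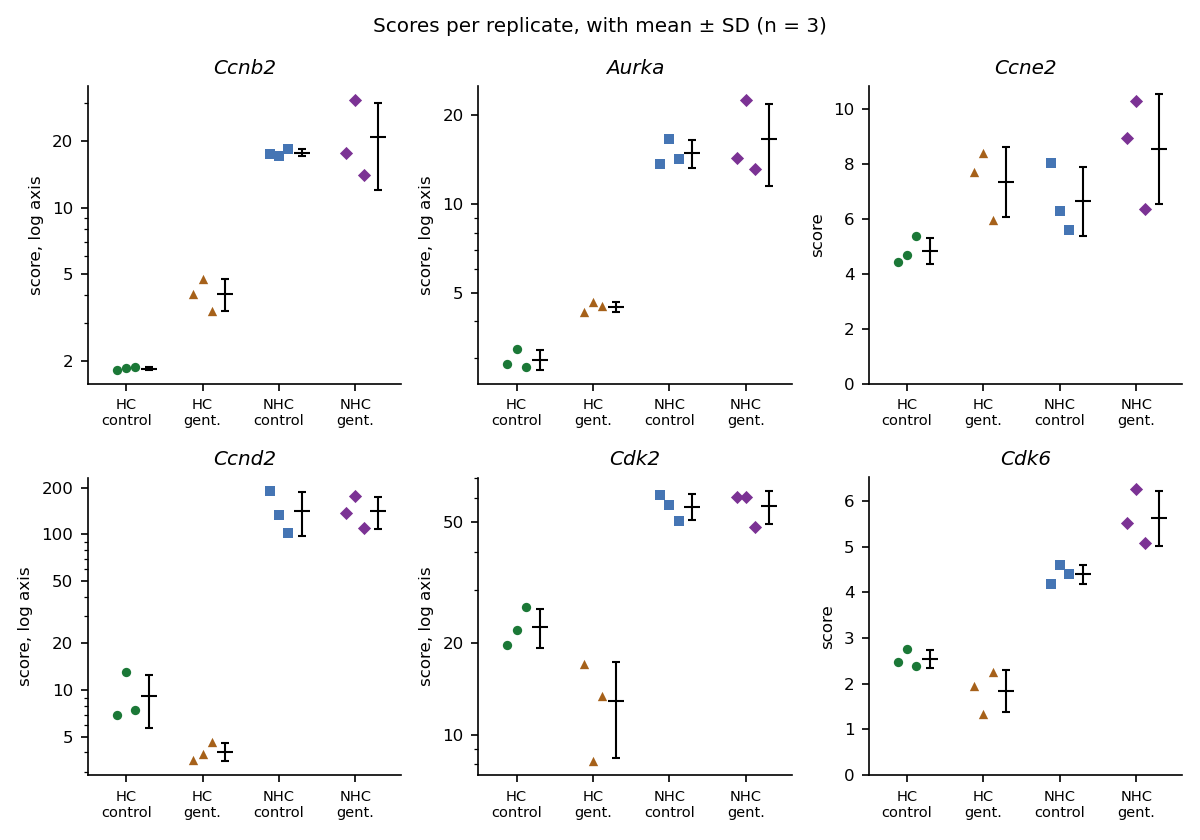
Scores of 6 genes (y axis, log scale for Ccnb2, Aurka, Ccnd2 and Cdk2, linear from 0 for Ccne2 and Cdk6) in the 4 groups (x axis). Points are the 3 replicates of each group, and the bar beside them is the mean ± SD. Ccnb2, Aurka and Ccne2 are higher with gentamicin in every HC replicate and Ccnd2, Cdk2 and Cdk6 lower. The NHC groups overlap for all of these genes except Cdk6.

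Ccne2 (chr4:11191351-11204779, plus strand), for cyclin E2, had scores of 4.43, 4.69 and 5.37 in HC control and of 7.69, 8.404 and 5.94 with gentamicin. Its log2 difference of 0.59 ± 0.21 missed the p threshold of the study but had an adjusted p of 0.046. The treated replicates were above the controls, with replicate 3 close to them. Ccne2 shares 609 of 3495 exonic bases with Ints8 on the opposite strand. Kif20a, a motor of the central spindle, was alike, with 7.48, 7.58 and 8.997 against 12.3, 12.3 and 11.3 (0.58 ± 0.19, adjusted p = 0.037). Cdc23, whose exons overlap those of Kif20a, had 175, 167 and 174 in HC control and 195, 186 and 188 with gentamicin.

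Read by role, 2 of the 29 mitotic genes passed (Ccnb2 and Aurka), and the remaining log2 differences ran from −0.66 for Mki67 to 0.58 for Kif20a. Cyclin B1 was at −0.33 (adjusted p = 0.16) beside the rise of cyclin B2, Ccna2 at 0.15, Cdk1 at −0.54 (adjusted p = 0.094), Cdc25b at −0.24 and Cdc25c at −0.09. All 5 centromere and passenger complex genes lay below 0, between −0.43 for Cenpe and −0.18 for Cenpf, and none passed. The 4 checkpoint and APC/C genes lay between −0.34 and 0.19.

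Mki67 depended on a single library. Its HC scores with gentamicin were 2.03, 2.47 and 5.46, and without gentamicin replicate 3 the gene passed the criteria, while with it the log2 difference was −0.66 ± 0.36 (adjusted p = 0.18). Over the 29 mitotic genes the median log2 difference was −0.21, and −0.10 without HC control replicate 2. Relative to NHC, the level of 24 of the 29 was lower with gentamicin than in control, with a median of 7.71% beside 9.37%. These values rested on the libraries that stood apart. Without NHC gentamicin replicate 2, 17 of the 29 were lower and the median with gentamicin was 9.53%, above that of the controls, and Ccna2, Cdc25b, Foxm1, Kif11, Kif23, Mad2l1 and Mybl2 turned higher. Without HC control replicate 2, 20 of the 29 were lower, and the control median was 7.56%. The same count of levels relative to NHC was not made over all genes. By the log2 difference of responses between HC and NHC, 23 of the 29 were below 0, beside 9202 of the 16077 genes tested. Mesenchyme and endothelial markers were at medians of 2.59% and 3.31% with gentamicin, and of 2.86% and 3.33% without NHC gentamicin replicate 2. With all replicates, Schwann cell markers were at 22.7% with gentamicin and 32.3% in control. Macrophage markers went the other way, at 7.32% with gentamicin and 6.92% in control.

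In G1 and S phase genes, the cyclins and kinases that fell stood beside members with other values. Ccnd1 was at −0.42 ± 0.22 (adjusted p = 0.18) and Ccnd3 at −0.05 ± 0.08, a value that turned positive when reads were scaled by library totals. Cdk6 was at −0.49 (adjusted p = 0.0502) and Cdk4 at −0.17. Ccne1 was at −0.26, with every treated replicate below every control, while Ccne2 was above 0. E2f1, E2f2 and E2f3 were at −0.38, 0.28 and 0.02. In all, 15 of the 40 genes had treated and control replicates that did not overlap, 5 higher and 10 lower (37.5%), against 54.8% of all genes tested.

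The third comparison asked the same of non-hair cells. None of the 40 genes passed there, against 5.44% of all genes tested (limma, p under 0.01, fold above 1.2), 3.18% higher and 2.26% lower. At an unadjusted p under 0.05 there was 1, E2f2 (0.34 ± 0.13, adjusted p = 0.22), which with Cdk6 was 1 of 2 genes whose NHC groups did not overlap (5%, against 17.8% of all genes). The log2 differences of the 40 genes ran from −0.13 to 0.35, with a median of 0.12 against −0.005 over all genes tested.

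The sign of the mitotic genes in NHC followed replicate 2 of the gentamicin group. Mki67 had scores of 86.5, 94.8 and 83.9 in NHC control and of 81.7, 140 and 76.1 with gentamicin, and Top2a of 98.7, 106 and 91.6 against 93.1, 150 and 86.9. In both genes replicate 2 was above all other libraries and replicates 1 and 3 were close to or below the controls. With all replicates 25 of the 29 mitotic genes were above 0 (median 0.12), beside 7850 of the 16077 genes tested. Without replicate 2 only Mad2l1 was (1 of 29, median −0.13).

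The 28 mitotic genes other than Cdc25b summed to scores without the offset of 741, 799 and 719 in NHC control and of 707, 1178 and 659 with gentamicin. Of 49 other mitotic genes, 47 were also highest in that library among the 6. Its supporting cell markers were at a median of 0.53 times the mean of the other 2 gentamicin replicates, its mesenchyme markers at 1.32 times, and its macrophage markers at 1.32 times. The part of cell type composition in the mitotic scores of that library was not tested. The 3 D-type cyclins were at a median of 0.90 times in it, with a range from 0.86 to 1.42, the highest for Ccnd2.

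The fourth comparison asked whether the response differed between HC and NHC, by the interaction of treatment and population at an adjusted p under 0.05. It passed for 1 of 40 genes, Cdk6, whose response was lower in HC, against 13.4% of all genes tested, of which 6.57% in that direction. Cdk6 (chr5:3341485-3531008, plus strand), a partner kinase of the D-type cyclins, had scores of 2.48, 2.75 and 2.38 in HC control and of 1.95, 1.34 and 2.25 with gentamicin, and of 4.18, 4.605 and 4.398 in NHC control and 5.52, 6.27 and 5.08 with gentamicin. The 2 responses differed by −0.84 ± 0.25 on the log2 scale (adjusted p = 0.045). Every treated replicate was below the controls in HC and above them in NHC, and neither response passed by itself. The HC scores stand for few reads, 34, 41 and 30 in control and 23, 8 and 35 with gentamicin.

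The Cdk6 call was close to its threshold. It held in 2 of 12 fits that left out 1 replicate (adjusted p 0.019 to 0.11) and was lost when reads were scaled by TMM (adjusted p = 0.052) or by library totals (0.055). The differences of the genes that passed in HC were 0.96 for Ccnb2 (adjusted p = 0.08), 0.47 for Aurka (0.25), −1.15 for Ccnd2 (0.074) and −0.87 for Cdk2 (0.093). Without NHC gentamicin replicate 2, Ccnb2 and Aurka passed and Cdk6 did not.

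Other genes of the cell cycle were read from 4 further lists, with the same test. Among 49 other mitotic genes, 4 passed in HC with gentamicin (8.16%, against 27.5% of all genes), 1 higher and 3 lower, and the median was −0.11. Mad1l1, a spindle checkpoint protein that recruits Mad2, rose from scores of 25.97, 22.3 and 22.98 to 31.5, 32.9 and 30.4 in HC (0.41 ± 0.11, adjusted p = 0.013). It also rose in NHC, from 22.6, 18.1 and 22.4 to 29.5, 33.2 and 28.7 (0.54 ± 0.11, adjusted p = 0.062). Among the genes that passed, the largest falls in HC were those of Knstrn, a spindle adaptor, at −0.65 ± 0.19, and Smc2, a condensin subunit, at −0.44 ± 0.14. Some that did not pass had differences as large, such as Cdca2 at 0.52 and Kif4 at −0.46.

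In NHC, 2 of the 49 passed (4.08%, against 5.44% of all genes tested), Mad1l1 and Cenpm, a centromere protein at 0.68 ± 0.18 (adjusted p = 0.11). Cenpm had 6.21, 6.51 and 6.71 in control and 9.04, 14.6 and 8.45 with gentamicin, so all 3 treated replicates were higher. Between the control populations, 43 of the 49 were lower in HC and 1, the centrosomal kinase Nek2, was higher (0.82 ± 0.16, adjusted p = 0.00065), against 42.2% of all genes lower and 31.9% higher.

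Of 16 genes for APC/C subunits and their coactivator, partner and inhibitor, 3 passed in HC, 2 higher and 1 lower (18.8%, against 27.5% of all genes tested). Fbxo5, for Emi1, which inhibits the APC/C, rose from 3.36, 3.68 and 4.47 to 6.85, 7.32 and 5.41 (0.76 ± 0.19, adjusted p = 0.0095). Anapc10, a subunit that helps bind substrates, rose by 0.45 ± 0.12 and Anapc11, the RING subunit, fell by 0.42 on the log2 scale. None passed in NHC.

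Of 12 other cyclins and regulators of CDKs, 4 passed in HC (33.3%, near the 27.5% of all genes tested), 3 higher and 1 lower. Cdk7, the catalytic subunit of the CDK-activating kinase, rose from 76.02, 72.97 and 75.4 to 102, 109 and 103 (0.48 ± 0.07, adjusted p = 0.00052), with no overlap. Its cyclin Ccnh rose by 0.41 ± 0.11, and Mnat1, which completes the complex and was named after its values were seen, by 0.40 ± 0.10. Ccnf, for cyclin F, fell from 4.604, 5.88 and 5.19 to 2.48, 2.76 and 3.35 (−0.87 ± 0.22, adjusted p = 0.011). No gene of the list passed in NHC.

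Among 13 other E2F, DP and MuvB genes, 4 passed in HC (30.8%, near the 27.5% of all genes tested), 2 in each direction. Lin54, the MuvB subunit that binds the cell cycle homology region, rose from 17.7, 18.9 and 17.9 to 29.7, 32.1 and 31.4 (0.77 ± 0.09, adjusted p = 0.00014). In NHC its scores were 17.2, 17.2 and 15.8 in control and 15.95, 18.1 and 16.6 with gentamicin (0.01 ± 0.09). E2f6, a repressor E2F, rose by 0.38 ± 0.06, while E2f5 and Tfdp2, a partner subunit of E2F factors, were at −0.42 ± 0.10 and −0.39 ± 0.09, both past the test. Between the control populations 8 of the 13 differed (61.5%, against 74.1% of all genes tested), 5 lower and 3 higher in HC.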

How the data were processed

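Single-end reads of RNA from sorted cells were trimmed and aligned to mm10 with TopHat 2 in PartekFlow by the authors (TopHat2 and mm10 per the labels). The deposited value is a normalized read score per gene. The methods name RPKM, but low scores of a replicate, at up to 50 reads, are multiples of 1 step with 1 added (73.8% to 75.3% whole within 0.02 reads), with no division by length, so reads were recovered as (score − 1) over that step. Aligner version, annotation and factor are not given in the sources used here.

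limma 3.58.1 (R 4.3.3, two-sided, variance trend on mean) was fitted to log2 scores of the 16077 genes with at least 100 reads, in 1 model of the 4 groups, with Benjamini-Hochberg adjustment over all of them. The fit was also run on simulated scores with independent noise around the group means. These held no library that stands apart, so that run does not cover such libraries. The added 1 makes log2 differences of low genes too small. Responses were called at p under 0.01 with a fold above 1.2, interactions and population differences at an adjusted p under 0.05. Replicate numbers come from the file headers. Same-numbered HC and NHC control libraries had correlations of 0.22, 0.32 and 0.20 in their deviations from group means. These numbers were taken to pair them, though no label says so. Differently numbered HC and NHC controls had correlations between −0.27 and −0.05, but NHC control replicate 1 and NHC gentamicin replicate 2 reached 0.57. Alternatives were other scalings, minimums, offset and thresholds, a replicate block, no variance trend, compared groups alone and each replicate left out. Leaving out each of 2 libraries for levels relative to NHC was chosen after seeing the data.

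The 40 genes and the other lists were chosen with earlier results of these data known. Values per replicate are given for genes called under gentamicin or in the interaction, for Ccnb2 and Ccne2, and for the 3 largest and 3 smallest population differences, and the 2 largest changes among called genes per other list and direction are named. Cdc25b, E2f2, Kif20a, Top2a, Mki67 under gentamicin, Cenpm, Mnat1, Nek2, Cdca2, Kif4 and Cdc23 were added after their values were seen. Gene positions are from GENCODE M21 and promoters from RefSeq.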

Additional observations from a re-analysis of the deposited data

Results flagged for a closer look

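For 3 of the 130 cell cycle genes read (2.31%, against 13.4% of all genes tested) the response to gentamicin differed between hair cells and non-hair cells by the interaction test of limma, 1 of them among the 40 (Cdk6, adjusted p = 0.045, described above). Lin54 had the smallest adjusted p of the 3, with a mean score of 18.2 in HC control and 31.0 with gentamicin against 16.7 and 16.9 in NHC, and the log2 responses differed by 0.76 ± 0.12 (SE, adjusted p = 0.0046). Cdc27, an APC/C subunit, went from 60.7 to 53.2 in HC and from 72.6 to 82.3 in NHC, and the responses differed by −0.37 ± 0.10 (adjusted p = 0.032), although neither passed by itself (adjusted p = 0.058 in HC and 0.23 in NHC). The causes were not tested.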

How the results depend on the processing

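Between 3 and 6 of the 40 genes passed in HC with gentamicin under every alternative other than leaving out a replicate, and 2 to 6 with 1 replicate left out (2 without HC control replicate 3). In NHC none passed under any of them except 1, Cdk4, without NHC control replicate 1 or NHC gentamicin replicate 3 (range 0 to 1). The difference of responses passed for 0 genes under TMM, scaling by total reads, a minimum of 1000 reads, at which Cdk6 is no longer tested, and no minimum, and for 0 to 2 with 1 replicate left out. An offset of 0.1 called Ccnb2 in place of Cdk6. The causes were not tested. Between the control populations 33 to 37 genes passed under all alternatives, and with TMM or median ratio factors E2f3 passed as higher in HC while Cdk4 (adjusted p = 0.16 in both) did not pass. In the replicate block, 5, 0, 1 and 37 genes passed in HC, in NHC, for the difference of responses and between the control populations. The 1 gene was Ccnd1, and Cdk6 was at an adjusted p of 0.066. No number was shown to pair treated with control libraries, where same-numbered correlations were 0.037, 0.052 and 0.037 in HC and 0.21, −0.23 and 0.68 in NHC. Relative to the deposited scaling, in which the median of all genes was −0.12 between the control populations, TMM put it at −0.01. Among called members no direction reversed. Depth limits the HC values of the mitotic genes, 17 of 29 of which had fewer than 100 reads in every HC library. The same held for 1 of the 11 G1 and S phase genes, Cdk6.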
